A study of Mus musculus with 4 samples.

Results

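The cells described here are GABAergic neurons of the mouse bed nucleus of the stria terminalis (BNST) that held RNA of Crh or Wif1, in nearly all cases Crh, and no captured RNA of Tac2. They were chosen from Drop-seq counts by a fixed rule. Cell barcodes had to show 400 or more genes, and no more than 10% of their UMIs (unique molecular identifiers, 1 per captured RNA molecule) could be mitochondrial. A cell counted as a neuron when Snap25, Syt1, Stmn2, Snhg11 and Meg3 together made up at least 0.6% of its UMIs. It counted as GABAergic with at least 1 UMI of Gad1, Gad2 or Slc32a1. A member had in addition at least 2 UMIs of Wif1 and Crh together and 0 UMIs of Tac2. Of 10200 barcodes, 4239 were kept, 2489 were neurons, 2283 were GABAergic and 145 were members, 47, 25, 25 and 48 of them in libraries 1 to 4. The other 2138 GABAergic neurons served as the comparison.

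The study profiled BNST tissue punches of male wildtype C57BL/6J mice, with no treatment or second genotype in the labels, and its title concerns prepronociceptin neurons (gene Pnoc). There were 4 libraries, each made from 6 pooled mice, so that n = 4 libraries of a single group and the spread between libraries is that between pools. Age was not given in the sources used here. Every comparison below sets classes of cells side by side within the same libraries.

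Crh encodes corticotropin-releasing hormone, a neuropeptide that acts through the receptors Crhr1 and Crhr2, is held back by the binding protein Crhbp, and is best known as the hypothalamic trigger of the stress hormone axis. In the BNST it is made by GABAergic neurons, many of them in the oval nucleus, which have been studied for their part in responses to stress and threat. Wif1 encodes a secreted protein that binds Wnt ligands, and Tac2 encodes the precursor of neurokinin B, a tachykinin. Tests below are edgeR quasi-likelihood tests on UMI counts summed per library and class, with the library as a block and Benjamini-Hochberg adjustment over all genes tested. A gene is said to rise or fall in members when its adjusted p was under 0.05. Levels are in CPM, the UMIs of a gene scaled to a fixed total for each class and library, and are given in the order of libraries 1 to 4. Fold changes are log2 values of members over the compared cells.

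The genes of the rule were looked at first, as a description without a test. Crh stood at 1421, 1617, 1801 and 1613 CPM in members, from 1340 UMIs, against 107, 164, 143 and 115 CPM in the other GABAergic neurons. The mean over the 4 libraries of members was 1613 ± 155 CPM (SD, n = 4). Single members held a median of 6 Crh UMIs, with quartiles of 3 and 12 and a highest value of 52. Cells below the neuron threshold held 97 Crh UMIs, 57 of them in library 2, and 1.37% of these 1750 cells had one, at a median depth of 1149 UMIs. Crh lies on chromosome 3, minus strand, from 19693401 to 19695396 in GENCODE vM21 on GRCm38.

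Wif1 did not mark these cells. Its whole count over the 2283 GABAergic neurons was 31 UMIs, of which members held 3, in 2 cells. One member, in library 4, entered through Wif1 alone with 2 UMIs and no Crh UMI, another, in library 1, held 1 Wif1 UMI beside 3 Crh UMIs, and the remaining 143 held Crh and no Wif1. Neurons that met the Crh or Wif1 threshold but also held Tac2 had 20 of the 31 Wif1 UMIs, in 12 of 80 cells, with 20.2, 70.9, 20.0 and 94.6 CPM, and all 20 were in the 74 of those cells with 2 or more Tac2 UMIs. The paired name of Crh and Wif1 therefore goes against the data for the cells without Tac2, and they are called Crh neurons without Tac2 below. A test of members with Wif1 alone against members with Crh alone could not be fitted, with 1 cell on one side. Wif1 spans 121033960 to 121100650 on the plus strand of chromosome 10, and Tac2 lies farther along the same strand from 127724478 to 127731768.

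**Figure D1:**
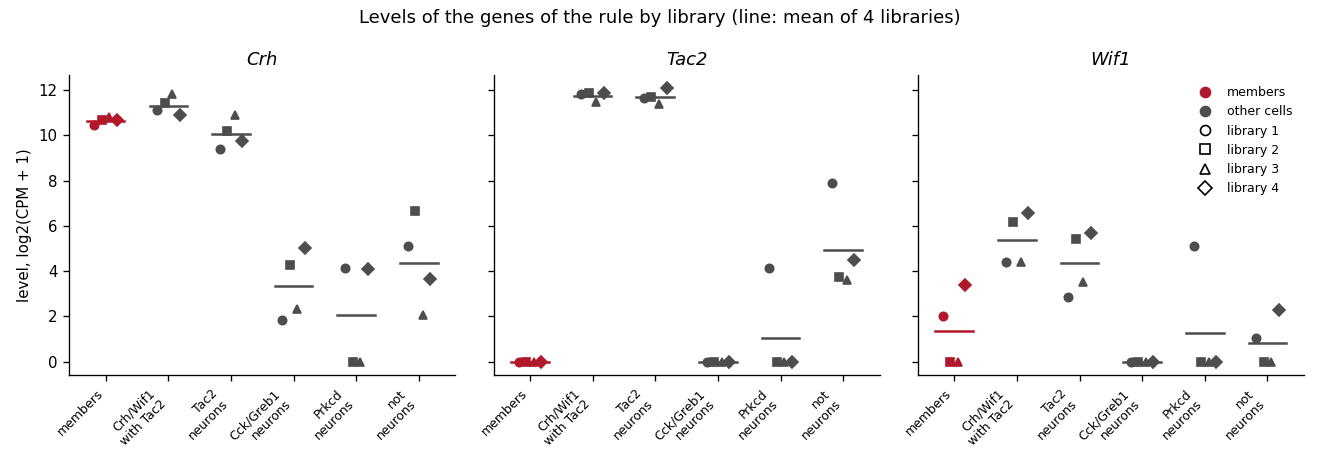
Levels of Crh, Tac2 and Wif1 in members and in 5 other sets of cells, as log2(CPM + 1), with 1 symbol per library and a line at the mean of 4 libraries. Members hold Crh at 1421 to 1801 CPM with Tac2 at 0 by the rule, and Wif1 is higher in the cells that also hold Tac2 (20.0 to 94.6 CPM).

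Members made up 6.52, 5.31, 6.23 and 6.96% of GABAergic neurons in libraries 1 to 4, a mean of 6.25% ± 0.697 (SD, n = 4). The exact 95% binomial intervals ran from 4.83 to 8.57% in library 1 and from 3.46 to 7.74% in library 2, cover counting error only, and overlapped over all 4 libraries. The rule asks for 2 UMIs of a gene and so favours cells with more RNA captured: members had a median of 5225 UMIs per cell against 3213.5 in the other GABAergic neurons, and members were 9.66% of GABAergic neurons with at least 3000 UMIs. The libraries held 2640399 to 5652342 UMIs over all barcodes, and the sums of members 139188 to 323110. Mitochondrial shares were 4.04% ± 1.47 in members and 4.10% ± 1.36 in the other GABAergic neurons (SD, n = 4). No member was called a doublet by Scrublet, against 35 of the other GABAergic neurons, and no member's barcode was listed in another library. The 25 members just inside the threshold, with 2 UMIs, had a Crh level of 383 CPM, and the 61 cells just outside it, with 1 UMI and no Tac2, had 230.4 CPM.

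Beyond the genes of the rule, genes higher in members than in all other GABAergic neurons included the transcription factors Lhx8 and Rorb, the phosphodiesterase Pde11a and the adrenergic receptor Adra1b. Those lower included the peptides Npy, Sst and Avp. Not all of these set members apart from the neurons that also held Tac2, as given below for Lhx8, Rorb, Pde11a, Npy and Sst. The Adra1b level of those neurons is not given here. Of 8815 genes tested against all other GABAergic neurons, 473 passed (5.37%), 217 higher in members (2.46%) and 256 lower (2.90%), and 435 of the 473 had the same sign in each library. With no filter on low counts, 130 of 466 calls were higher in members. Before adjustment 1407 genes had a p under 0.05. With the other neurons matched to members on depth, 238 genes passed of 6428 tested, 232 of them among the 473. Among genes named below, Penk, Htr2c, Foxp1, Meis2, Kcnab1, Kcnip2, Grin2b, Grik3, Pde1c, Gng7, Adcy5, Gnal, S100a10, Efnb3, Jun, Mbp, Slc1a2 and Rpl22l1 did not pass with this matching. Kcnj5, Maob, Fam101b, St8sia2, St18, Slc17a6, Rnf207, Avp, Nfib, Nfix, Gal, Drd1a, Prox1, Ebf1, Zic4, Etv1, Cdh11, Egr4, Npas4, Cnp and Ppap2b were too low to be tested with it. DESeq2 called 184 genes, and among genes named below it did not call Gal, Pnoc, Penk, Nts, Cnr1, Htr2c, Foxp1, Id2, Slc17a8, Kcnab1, Kcnip2, Grin2b, Grid1, Grik3, Pde1c, Pde2a, Gng7, Adcy5, Gnal, Nrp1, Pcdh8, Efnb3, Pcdhga9, Epha5, Npas4, Fos, Jun, Mbp, Slc1a2 or Rpl22l1. DESeq2 gave no adjusted p for Kcnj5, St8sia2, St18, Slc17a6, Rnf207, Nfix, Drd1a, Prox1, Ebf1, Zic4, Etv1, Cdh11, Egr4, Cnp and Ppap2b, which its filter on low counts removed, so they are not among its calls. Without library 1 or 4 edgeR called 264 or 243.

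Among neuropeptide genes, members had 1 of 15 tested higher and 7 lower, beside 2.46% and 2.90% of all genes, and DESeq2 called 4. The falls that held with any 1 library left out were in Avp, Npy, Sst, Gal and Tac1. Npy, for neuropeptide Y, had 18.6, 0, 34.4 and 23.6 CPM in members and 737, 356, 337 and 1043 CPM in the other GABAergic neurons. For Npy the log2 fold change came to -5.03, with an SE of 0.22 and an adjusted p of 1.29e-30. Sst, for somatostatin, had 34.0, 309, 63.1 and 18.9 CPM against 1023, 411, 416 and 1949 CPM. For Sst the log2 fold change came to -3.44, with an SE of 0.27 and an adjusted p of 9.08e-17. Neither gene overlapped between the groups. Low Npy and Sst were not particular to members. Drawn to 1000 UMIs per cell, 2.53% ± 2.53 of members had an Npy UMI and 3.79% ± 1.77 an Sst UMI. In the neurons that met the Crh or Wif1 threshold but also held Tac2, the shares were 0% in every library and 3.40% ± 2.59. Library 2 gave 43 of the 69 Sst UMIs of members, and 1 member held 40 of the 69. Without library 2 the Sst log2 fold change was -4.91 and without library 4 it was -2.53. Avp, for vasopressin, had 1 UMI in members and 960 in the others (ratio of pooled levels 99.5, 95% counting interval 17.8 to 3935), that single UMI coming from library 1, so that without it members held none. Gal, for galanin, had 15.5, 0, 115 and 23.6 CPM against 265, 518, 79.8 and 72.9 CPM. For Gal the log2 fold change came to -2.54, with an SE of 0.32 and an adjusted p of 8.53e-09. It was lower in 3 of 4 libraries and higher in library 3, stood at -1.90 without library 1, -1.76 without library 2 and -4.08 without library 3, and was not past the threshold with DESeq2.

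Tac1, the precursor of substance P and neurokinin A, had 89.8, 35.9, 184 and 23.6 CPM in members and 397, 306, 297 and 212 CPM in the other GABAergic neurons, lower in each library. For Tac1 the log2 fold change came to -1.91, with an SE of 0.19 and an adjusted p of 2.38e-12. In members 14 cells held its 71 UMIs, 5 of them 84.5%. Pnoc, the subject of the study, had 37.1, 101, 68.8 and 169.8 CPM in members and 179, 155, 137 and 135 CPM in the others. It was lower in libraries 1 to 3 and higher in library 4 (log2 fold change -0.79, SE 0.21, adjusted p 0.0118). The call was lost without library 1 (-0.26, adjusted p 0.679) or 3 (-0.74, adjusted p 0.088). Without library 4 it was -1.37. DESeq2 did not call it either. With the others matched on depth, Pnoc was -0.99 (edgeR adjusted p 0.0032). The call on the lower Pnoc level of members thus depended on which pools were counted and on the method. Drawn to 1000 UMIs per cell, 7.17% ± 3.59 of members and 9.76% ± 1.40 of the other GABAergic neurons had a Pnoc UMI (SD, n = 4; 142 and 1868 cells, with 3 and 270 shallower cells left out), against 0.706% ± 0.519 of cells below the neuron threshold. Drawn to 2000 UMIs per cell, the shares were 11.1% ± 4.27 and 17.1% ± 1.74 (130 and 1475 cells, with 15 and 663 left out), with every library of members below every library of the others, and undrawn they were 19.5% ± 1.67 and 19.9% ± 4.80.

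Penk, for enkephalin, and Nts, for neurotensin, were captured in 44 and 35 of the 145 members. Penk had 730.4, 223, 499 and 415 CPM against 557, 741, 589 and 989 CPM. For Penk the log2 fold change came to -0.51, with an SE of 0.14 and an adjusted p of 0.0114. The call on Penk was lost without library 2 (-0.28), 3 (-0.56) or 4 (-0.28), and with the others matched on depth it was -0.19 (adjusted p 0.576). Nts had 300.2, 675, 333 and 391 CPM against 305, 350.0, 162 and 405 CPM. For Nts the log2 fold change came to 0.43, with an SE of 0.13 and an adjusted p of 0.0271. It was higher in libraries 2 and 3 only, and the call was lost without library 2 (0.24) or 3 (0.29). With the others matched on depth, Nts was 0.67 (adjusted p 0.0026). At 1000 UMIs per cell, 15.9% ± 5.24 of members and 10.8% ± 2.87 of the others had an Nts UMI, and 2.18% ± 1.54 of cells below the neuron threshold did. Neither peptide thus separated members from the other GABAergic neurons in every pool.

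Some peptides did not pass and varied widely between pools. Cartpt, for the CART peptide, had 898, 151, 115 and 217 CPM against 565, 528, 557 and 365 CPM. For Cartpt the log2 fold change was -0.51 (adjusted p 0.0678). A single member held 190 of the 377 Cartpt UMIs, and without library 1 the value was -1.50 and past the threshold (adjusted p 3.06e-06). Cck, for cholecystokinin, had no UMI in members of libraries 1 and 2, and 436 and 151 CPM in libraries 3 and 4, all 108 UMIs in 5 cells (log2 fold change -0.71, adjusted p 0.104; -1.83 and past the threshold without library 3, -0.02 without library 1; -1.33, adjusted p 0.00065, with the others matched on depth). Pdyn, for dynorphin, had 49.5, 50.3, 0 and 70.7 CPM against 40.7, 51.8, 45.6 and 48.2 CPM (log2 fold change -0.03, adjusted p 0.985), with a change of sign to 0.32 without library 3. Taken for each gene on its own, the top 5 members thus held 71.6% of the Cartpt UMIs and all of the Cck UMIs. These were not the same 5 cells, as members of library 1, where Cartpt was highest, held no Cck UMI.

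**Figure D2:**
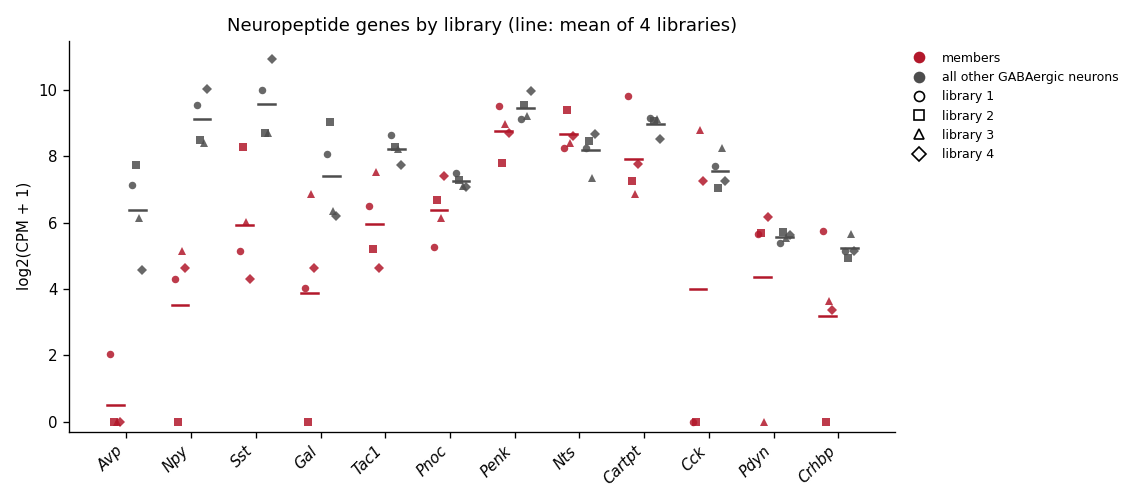
Levels of 12 peptide and binding protein genes in members and in all other GABAergic neurons as log2(CPM + 1), with 1 symbol per library and a line at the mean of 4 libraries. Avp, Npy, Sst and Tac1 lie lower in members in every library, while Pnoc, Penk, Nts, Cartpt, Cck and Pdyn overlap between the groups.

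The rest of the CRH system was scarce. Of its 5 listed genes besides Crh, 1 was tested: Crhbp, for the binding protein, had 52.6, 0, 11.5 and 9.43 CPM in members and 34.4, 29.7, 49.4 and 34.2 CPM in the others (log2 fold change -0.61, adjusted p 0.44), and it passed only without library 1 (-2.30). Crhr1, the main receptor, had 7 UMIs in members and was too low to test. The receptor gene Crhr2 had 1 UMI in members, the ligand gene Ucn3 had 8, all in one library, and Ucn2 had none. Of 63 genes of the Wnt pathway, on which the Wif1 product acts, 41 had a UMI in members, 21 were tested and 0 passed with edgeR (5.37% of all genes), with a median log2 fold change of -0.26 beside -0.00472 over all genes tested. None of the 21 passed under DESeq2 either. Before adjustment 4 of the 21 had an edgeR p under 0.05, beside 1407 of all 8815 genes tested, a similar share. The 4 were Fzd3, Gsk3b, Wls and Wnt7a, all lower in members and named after their values were seen.

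The hormone and transmitter receptors gave 3 rises and 2 falls among 25 tested, beside 2.46% and 2.90% of all genes, and DESeq2 called 2. Adra1b, an alpha-1 adrenergic receptor, had 49.5, 71.8, 34.4 and 33.0 CPM in members and 11.3, 12.2, 11.4 and 8.41 CPM in the others, with no overlap. For Adra1b the log2 fold change came to 2.10, with an SE of 0.35 and an adjusted p of 9.21e-06. Npy2r, a receptor for neuropeptide Y, had 105, 115, 264 and 118 CPM against 75.1, 90.3, 82.0 and 66.7 CPM (log2 fold change 0.89, SE 0.18, adjusted p 0.000484). Without library 3 Npy2r was 0.57 and no longer past the threshold. Cnr1, the cannabinoid receptor of neurons, was higher by 0.59 and lost its call without library 1 (0.72), 3 (0.19) or 4 (0.70). Drd1a, the D1 dopamine receptor, had 3 UMIs in members, all in library 1, so that without it members held none, and 243 in the others (ratio of pooled levels 8.40, 95% counting interval 2.84 to 41.0). Htr2c, a serotonin receptor, was lower, with a log2 fold change of -0.83, at -1.54 without library 1, and no longer past the threshold without library 2 (-0.83), 3 (-0.44) or 4 (-0.69). Oprl1, the nociceptin receptor, had 46.4, 71.8, 40.2 and 37.7 CPM against 51.7, 60.6, 62.3 and 79.6 CPM and did not pass (log2 fold change -0.38, adjusted p 0.489).

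Of 40 tested transcription factors of GABAergic lineages, 5 were higher and 15 lower, beside 2.46% and 2.90% of all genes, with a median of -0.53, and DESeq2 called 12. Lhx8, a LIM homeobox factor of the medial ganglionic eminence, had 130.0, 122, 22.9 and 104 CPM in members and 16.6, 27.4, 25.1 and 23.5 CPM in the others. For Lhx8 the log2 fold change came to 2.16, with an SE of 0.27 and an adjusted p of 5.45e-09. It was higher in libraries 1, 2 and 4 and close to the others in library 3. Rorb, a nuclear receptor, had 65.0, 71.8, 28.7 and 70.7 CPM against 12.8, 21.5, 7.60 and 22.4 CPM (log2 fold change 1.95, SE 0.30, adjusted p 2.43e-06). Rorb was higher in every library. At 1000 UMIs per cell, 7.82% ± 3.95 of members and 2.01% ± 0.532 of the others had an Lhx8 UMI, against 0.119% ± 0.237 of cells below the neuron threshold. For Rorb the shares were 4.29% ± 1.04, 1.23% ± 0.766 and 3.99% ± 2.10. At this depth the Rorb share of members was thus not above that of cells below the neuron threshold beyond the spread between libraries. Drawn to 2000 UMIs per cell, the Rorb shares were 8.21% ± 1.39, 2.16% ± 0.812 and 2.23% ± 0.847. There, every library of members lay above every library of cells below the threshold, of which 316 were deep enough and 1434 were left out. The zinc finger homeobox gene Zfhx4 had 158, 151, 143 and 127 CPM against 72.7, 76.3, 69.9 and 72.3 CPM (log2 fold change 1.01, SE 0.17, adjusted p 1.84e-05). Its relative Zfhx3 had 136, 179.6, 218 and 259 CPM against 88.8, 98.4, 131 and 147 CPM (log2 fold change 0.76, SE 0.15, adjusted p 0.000267). Both were higher in all 4 libraries. Isl1, a LIM homeobox factor, was higher by 0.80 (SE 0.18, adjusted p 0.00211) and lost its call without library 4 (0.66). Lhx8 lies on chromosome 3, from 154306294 to 154330659, and Rorb on chromosome 19, from 18930605 to 19111196.

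Among the lower factors, St18, a zinc finger factor, had no UMI in members and 209 in the others, at least 7.22-fold lower with a floor of 3 counts over all members. Nfib (3 UMIs against 497; ratio of pooled levels 17.2, 95% counting interval 5.84 to 83.6) and Nfix (3 against 272; ratio of pooled levels 9.40, 95% counting interval 3.18 to 45.9), both nuclear factor I genes, were nearly undetected; the 3 Nfix UMIs were all in library 4, so that without it members held none, and without library 1 or 3 the log2 fold change of Nfib was -5.23 or -3.44. Six3 (-2.21), Zic1 (-1.72), Mef2c (-1.58), Nr2f2 (-1.45), Bcl11b (-0.97) and Meis2 (-0.84) were lower in all 4 libraries and kept the call without any 1 library. Meis2, a homeobox factor of the lateral ganglionic eminence, had 248, 266, 195 and 274 CPM in members and 355, 478, 480.1 and 506 CPM in the others. With the others matched on depth, Meis2 was -0.27 (adjusted p 0.392), so its lower level was not past the threshold between cells of like depth. The calls on the other 6 factors did not hold with every library left out in turn. Prox1 (-2.54) had its 5 UMIs in library 1, so that without it members held none, and was lost without library 3 (-1.85). Ebf1 (-2.07) was lost without library 1 (-1.94) or 3 (-1.85) and stood at -2.89 without library 4. Zic4 (2 UMIs, both in library 1, so that without it members held none; ratio of pooled levels 6.43, 95% counting interval 1.74 to 53.7) was lost without library 2, 3 or 4 (-2.48 to -2.04), Foxp1 (-1.12) without library 1 (-1.05) or 3 (-0.81), Id2 (-1.07) without library 1 (-0.95), and Etv1 (-1.49) without any 1 library (-1.73 to -1.29). Lhx6, the other LIM factor of the medial ganglionic eminence, had 43.3, 50.3, 34.4 and 56.6 CPM against 35.3, 48.9, 58.5 and 56.1 CPM (log2 fold change -0.04, adjusted p 0.97; 0.15 without library 3).

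The 12 largest rises over all genes that went the same way in every library included Rorb and Adra1b, given above, and Pcsk1, given below. Pde11a, a phosphodiesterase that breaks down cyclic nucleotides, had 71.2, 64.7, 97.5 and 193 CPM in members and 14.2, 15.7, 24.3 and 34.8 CPM in the others (log2 fold change 2.28, SE 0.24, adjusted p 3.87e-11), with every library of members above every library of the others. It lies on chromosome 2, from 75989141 to 76338774. Maob, 1 of the 2 monoamine oxidases, had 21.7, 57.5, 109 and 42.4 CPM against 8.91, 15.1, 12.2 and 11.2 CPM (log2 fold change 2.14, SE 0.34, adjusted p 5.47e-06). Its neighbour Maoa, picked out after its values were seen, had 80.5, 86.2, 74.6 and 70.7 CPM against 35.6, 33.8, 43.3 and 29.2 CPM. For Maoa the log2 fold change came to 1.15, with an SE of 0.24 and an adjusted p of 0.000473. Stk32a, a serine/threonine kinase, had 65.0, 71.8, 68.8 and 61.3 CPM against 14.8, 24.5, 15.2 and 17.4 CPM. For Stk32a the log2 fold change came to 1.94, with an SE of 0.29 and an adjusted p of 7.22e-07. Both oxidases and the kinase were thus higher in each of the 4 pools. The secreted antagonist gene Sostdc1 (55.7, 50.3, 57.4 and 51.9 CPM against 13.4, 19.2, 12.9 and 19.1 CPM; log2 fold change 1.79, SE 0.31, adjusted p 2.78e-05), whose product acts on BMP and Wnt signalling, was not among the Wnt genes listed above. The synaptotagmin gene Syt17 (2.23), Fam101b (2.07) and the scaffold gene Akap12 (1.67) also rose in all 4 libraries and kept the call without any 1 library. Kcnj5, an inward rectifier potassium channel, was higher by 2.18 from 17 UMIs and was lost without library 3 (1.93). St8sia2, a polysialyltransferase, was higher by 1.84 from 22 UMIs and was lost without library 1 (1.76) or 2 (1.48).

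**Figure D3:**
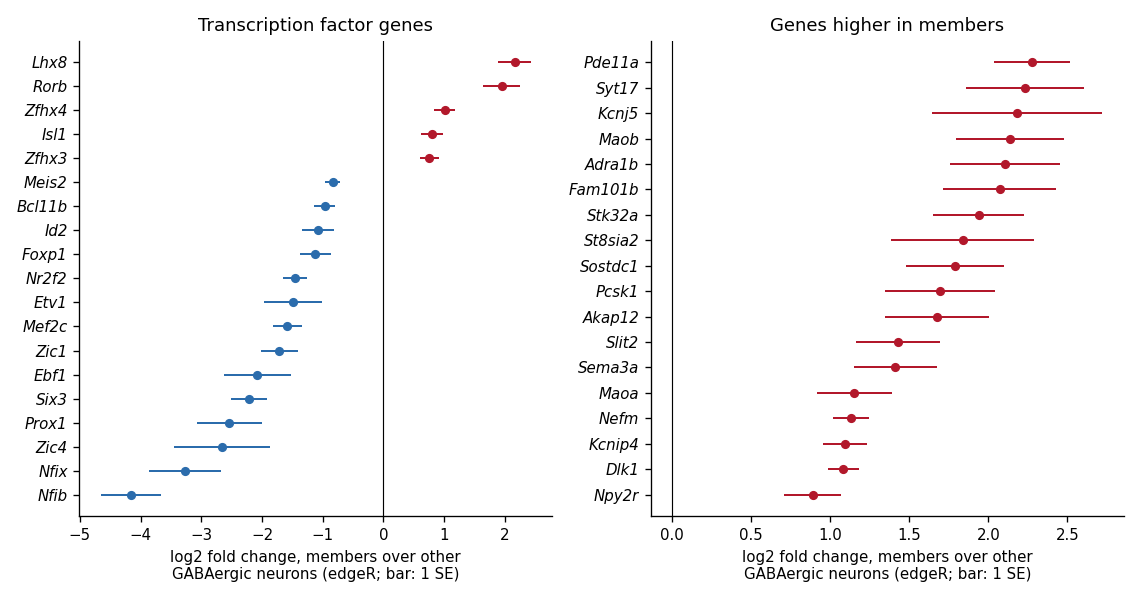
Log2 fold changes of members over all other GABAergic neurons (edgeR, bars of 1 SE over 4 libraries) for 19 of the 20 called transcription factor genes, leaving out St18, which had no UMI in members, and for 18 genes higher in members. Lhx8 and Rorb stand at 2.16 and 1.95, and Nfib at -4.16.

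Of 18 tested genes of peptide processing and dense-core vesicles, 1 rose and 1 fell, beside 2.46% and 2.90% of all genes, and DESeq2 called 2. Pcsk1, a prohormone convertase, had 43.3, 43.1, 40.2 and 37.7 CPM in members and 13.4, 13.4, 13.7 and 10.7 CPM in the others. For Pcsk1 the log2 fold change came to 1.69, with an SE of 0.35 and an adjusted p of 0.000453. Pam, which amidates peptide ends, had 219.7, 237, 201 and 207 CPM against 315, 387, 316 and 292 CPM. For Pam the log2 fold change came to -0.57, with an SE of 0.13 and an adjusted p of 0.00122. Both kept the call without any 1 library.

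Of 33 receptor subunits for GABA and glutamate, 5 rose and 5 fell, beside 2.46% and 2.90% of all genes, and DESeq2 called 7. Gabra4, a GABA-A subunit, fell by 1.36 on the log2 scale (37.1, 35.9, 22.9 and 18.9 CPM against 88.2, 56.5, 79.8 and 69.5 CPM). The NMDA subunit Grin3a (0.64) rose, and the AMPA subunits Gria1 (-0.59) and Gria2 (-0.42) and the metabotropic receptor Grm5 (-0.74) fell, all 4 in every library. Gabrq (0.82) was lost without library 3 (0.67). Grid1 (0.63; lost without 1, 3 or 4, range 0.49 to 0.69), Grik3 (0.87; lost without 1, 2 or 4, range 0.68 to 0.97) and Grin2b (-0.42; lost without any 1 library, range -0.49 to -0.34) did not keep the call. Among 37 potassium channel genes 2 rose and 2 fell, beside 2.46% and 2.90% of all genes, and DESeq2 called 1. Kcnip4, a channel-interacting protein, rose (269, 244, 235 and 245 CPM against 136, 126, 95.0 and 109.9 CPM; log2 fold change 1.09, SE 0.14, adjusted p 1.65e-08) as did Kcnj5. Kcnab1 (-0.97; -0.75, adjusted p 0.071, with the others matched on depth) and Kcnip2 (-0.94; lost without library 1, -0.95, or 4, -0.78) fell. Scn1a, a sodium channel, was the single call among 32 calcium, sodium and HCN channel genes, beside 5.37% of all genes (0.59; lost without library 4, 0.47).

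Of 57 genes of G protein and cyclic nucleotide signalling, 3 rose and 5 fell, beside 2.46% and 2.90% of all genes, and DESeq2 called 3. Beside Pde11a, Gnas, the stimulatory G protein subunit, rose (4884, 6049, 4532 and 4961 CPM against 3853, 4148, 2835 and 3499.8 CPM; log2 fold change 0.52, SE 0.07, adjusted p 4.36e-08), and Pde1a, a calmodulin-dependent phosphodiesterase, fell (192, 201, 229 and 160.3 CPM against 350.3, 374, 349 and 343 CPM; log2 fold change -0.86, SE 0.13, adjusted p 1.14e-06). The related Pde1c was higher by 0.96 and was lost without library 1 (0.92) or 2 (0.71). The striatal cascade genes Gng7 (-1.18; lost without library 1, -1.13, or 4, -1.12), Adcy5 (-0.92; lost without 1, 2 or 3, range -0.85 to -0.84) and Gnal (-0.43; lost without 1, 3 or 4, range -0.45 to -0.30) and the phosphodiesterase Pde2a (-1.03; lost without library 1, -0.95, or 4, -1.01) were lower, and Gng7, Adcy5 and Gnal did not pass with the others matched on depth. Ppp1r1b, the DARPP-32 gene of striatal spiny neurons, fell (18.6, 35.9, 28.7 and 47.2 CPM against 78.1, 60.6, 91.2 and 144 CPM; log2 fold change -1.60, SE 0.26, adjusted p 7.32e-06), as did Crym, a thyroid hormone binding protein (9.28, 7.18, 11.5 and 23.6 CPM against 60.6, 40.2, 68.4 and 86.3 CPM; log2 fold change -2.31, SE 0.35, adjusted p 1.16e-06). A list of 19 genes that lead other GABAergic classes of these punches was chosen on these libraries and so is no independent evidence. Of its 18 genes tested, 2 rose (Lhx8 and Rorb) and 11 fell, beside 2.46% and 2.90% of all genes, and DESeq2 called 9. The calls on Ebf1, Slc17a8 and Zic4 did not hold with every library left out in turn.

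Guidance and adhesion genes gave 4 rises and 5 falls among 81 tested, beside 2.46% and 2.90% of all genes, and DESeq2 called 3. The guidance cues Slit2 (58.8, 86.2, 68.8 and 70.7 CPM against 18.7, 26.8, 44.8 and 20.7 CPM; log2 fold change 1.43, SE 0.27, adjusted p 0.00011) and Sema3a (46.4, 86.2, 80.3 and 84.9 CPM against 22.6, 37.3, 22.0 and 28.0 CPM; log2 fold change 1.41, SE 0.26, adjusted p 8.38e-05) and the protocadherin Pcdh17 (0.53) rose in all 4 libraries. The protocadherin Pcdhga9 (-0.56) fell. The semaphorin co-receptor Nrp1 (0.65) was lost without library 1 (0.53) or 4 (0.59). Pcdh8 (-1.26) was lost without 3 (-0.84). Efnb3 (-0.65) was lost without 1 (-0.64) or 2 (-0.52). Epha5 (-0.42) was lost without 1, 2 or 4 (range -0.44 to -0.30). Cdh11 (-1.75) was lost without 2, 3 or 4 (-1.86 to -1.45), with -2.37 without library 1. Of 11 calcium-binding proteins tested 1 rose and 4 fell, beside 2.46% and 2.90% of all genes, and DESeq2 called all 5. Calb1 (145, 216, 207 and 231 CPM against 406, 309, 368 and 306 CPM; log2 fold change -0.85, SE 0.14, adjusted p 7.44e-06), Necab1 (37.1, 43.1, 45.9 and 42.4 CPM against 149, 128, 168 and 139 CPM; log2 fold change -1.82, SE 0.22, adjusted p 2.69e-09) and Hpca (-0.83) fell in every library. Vsnl1 (-0.41) fell and was lost without library 1 (-0.38). S100a10 (1.00) rose and was lost without library 1 (0.87). Among 64 ribosomal protein genes 1 passed, beside 5.37% of all genes, Rpl22l1 (0.43), lost without library 1 (0.49) or 4 (0.32). Dlk1, an imprinted membrane ligand, and Nefm, a neurofilament, were picked out after their values were seen. Dlk1 had 470.4, 848, 665 and 835 CPM against 216, 344, 339 and 444 CPM (log2 fold change 1.08, SE 0.10, adjusted p 1.46e-13). Nefm had 508, 402, 505 and 575 CPM against 293, 202, 206 and 208 CPM. For Nefm the log2 fold change came to 1.13, with an SE of 0.11 and an adjusted p of 4.83e-12.

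Markers of other cells were read beside these results. Of the 3 vesicular glutamate transporter genes, Slc17a7 was too low to test, Slc17a6 had no UMI in members and 204 in the others (at least 7.05-fold lower), and Slc17a8 had 34.0, 28.7, 0 and 0 CPM against 24.6, 62.9, 100.3 and 81.3 CPM (-1.73; -3.39 without library 1, lost without library 3, -1.13, or 4, -1.12). Rnf207, also among the 8 largest falls, had no UMI in members and 120 in the others (at least 4.15-fold lower). Of 12 oligodendrocyte markers, Mog, Cldn11, Aspa and Ugt8a had no UMI in members, and the summed level of the 12 was 154.7 to 264.1 CPM in members, 277.8 to 1531 CPM in the other GABAergic neurons and 81019.9 CPM or more in every library of cells below the neuron threshold. Cnp (-1.83; lost without library 1, 3 or 4, -1.95 to -1.46) and Mbp (-0.91; lost without 1, -0.68, or 3, -0.66) did not pass once doublets were removed. Of 12 astrocyte markers, Aqp4, Gfap, Agt, Ntsr2 and Fgfr3 had no UMI in members and the sum was 282.9 to 442.6 CPM against 313.9 to 357.8 CPM. Aldoc rose (415, 323, 224 and 169.8 CPM against 211, 189.9, 95.7 and 131 CPM; 0.86). Slc1a2 (-0.82; lost without library 1, -0.49, or 4, -0.98) and Ppap2b (-1.69; lost without 1, 3 or 4, -1.79 to -1.36) were lower and did not pass with doublets removed. Of 10 microglia and 12 vascular markers, 7 and 8 had no UMI in members, whose sums held fewer UMIs than those of the others. The summed levels were not lower in members. For microglia the sum was 7.18 to 47.2 CPM in members against 17.5 to 21.3 CPM in the others. For vascular markers it was 401.6 to 537.6 CPM against 349.4 to 551.7 CPM. Immediate early genes, which tissue dissociation can induce, were lower in members for 6 of 9 tested, beside 2.90% of all genes, and DESeq2 called 2. Their summed level was 383.8 to 499.1 CPM in members and 510.0 to 1143 CPM in the others. Egr1 had 37.1, 57.5, 132 and 89.6 CPM against 95.9, 126, 283 and 221 CPM (log2 fold change -1.21, SE 0.18, adjusted p 1.16e-06) and kept the call without any 1 library. The calls on Fos (-1.26; lost without 3, -0.78, or 4, -1.05), Junb (-1.25; lost without 4, -0.92), Jun (-0.84; lost without 1, -0.71, or 4, -0.57), Npas4 (-2.34; lost without 3, -1.73, and -3.04 without 4) and Egr4 (3 UMIs; ratio of pooled levels 6.22, 95% counting interval 2.09 to 30.4; lost without 3 or 4, -2.66 to -2.11, and -3.88 without 1) did not hold with every library left out in turn. The part of these marker and dissociation genes in the other results was not tested.

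Members were then set against the neurons that the last condition of the rule removed, the 80 GABAergic neurons with at least 2 UMIs of Crh or Wif1 and with Tac2, to ask what else goes with Tac2 among Crh neurons. The comparison was added after the class sizes were seen, and every comparison shares the members' own sums. These cells (21, 21, 14 and 24 in libraries 1 to 4) held Crh at 2231, 2716, 3592 and 1934 CPM and Tac2 at 3616, 3699, 2814 and 3763 CPM, with a median of 11 Tac2 UMIs and of 4482.5 UMIs in all. Of 3360 genes tested, 48 passed (1.43%), 18 higher in members and 30 lower, and 47 had the same sign in each library. Before adjustment 336 genes had a p under 0.05, DESeq2 called 17, and edgeR called 16 with members matched on depth, 16 without library 2 and 16 without library 3.

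Dlk1 had 470.4, 848, 665 and 835 CPM in members and 141, 10.1, 20.0 and 137 CPM in Crh neurons with Tac2, with no overlap (log2 fold change 2.90, SE 0.33, adjusted p 3.35e-05; 3.68 without library 1). It lies on chromosome 12, from 109452823 to 109463336. Spock3, a proteoglycan, had 755, 524, 482 and 448 CPM against 262, 182, 39.9 and 147 CPM (log2 fold change 1.70, SE 0.22, adjusted p 5.94e-05), and kept the call without any 1 library, with DESeq2 and with members matched on depth. Nxph1, a secreted ligand of neurexins, had 105, 115, 109 and 84.9 CPM against 26.9, 10.1, 20.0 and 10.5 CPM (log2 fold change 2.47, SE 0.44, adjusted p 0.00393; lost without library 2, 2.25). The kinase gene Dgkk (2.25; 4.75 without library 1, lost without 2, 1.83, or 3, 2.13) and Pcbd1 (1.54; lost without 2, 1.23, or 3, 1.69) were also higher. DESeq2 called neither Dgkk nor Pcbd1. Members thus carried more of these 5 transcripts than Crh neurons with Tac2 in every library.

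On the other side, Tac1 had 89.8, 35.9, 184 and 23.6 CPM in members and 343, 1155, 1237 and 988 CPM in Crh neurons with Tac2, again with no overlap. For Tac1 the log2 fold change came to -3.37, with an SE of 0.32 and an adjusted p of 4.06e-06. Tac1 and Tac2 both encode tachykinins, and Tac2 itself was set by the rule. Synpr, a synaptic vesicle protein, had 27.9, 21.6, 40.2 and 37.7 CPM against 94.1, 345, 279 and 210.2 CPM. For Synpr the log2 fold change came to -2.68, with an SE of 0.34 and an adjusted p of 5.94e-05. Pdyn had 49.5, 50.3, 0 and 70.7 CPM against 128, 375, 139.7 and 210.2 CPM (log2 fold change -2.12, SE 0.37, adjusted p 0.0033; lost without library 2, -1.83, and -2.71 with members matched on depth). All 4 libraries of members lay below all 4 of Crh neurons with Tac2 in these 3 genes. The factor Bcl11b (86.7, 151, 86.1 and 104 CPM against 94.1, 345, 539 and 662 CPM; -1.77, lost without library 3, -1.53) was lower in members. Meis2 (248, 266, 195 and 274 CPM against 289, 831, 1078 and 799 CPM; -1.45, lost without library 3, -1.14, and -1.15, adjusted p 0.0559, with members matched on depth) was lower too, both genes being picked out after their values were seen. Pcp4l1 (-2.29; lost without library 3, -1.69) fell as well. Egr1 (-2.14) and Junb (-2.26; lost without library 3, -1.63, and with DESeq2) were lower too, beside a summed immediate early level of 383.8 to 499.1 CPM in members and 443.6 to 3772 CPM in Crh neurons with Tac2, highest in library 3. Pnoc (-1.25, adjusted p 0.232; -0.11 without library 1, and -1.57 and past the threshold without library 4) did not pass. Penk (1.26, adjusted p 0.0618; past the threshold without library 1, 2.51, or 4, 1.07, and with members matched on depth, 1.56) did not pass either. Lhx8 was too low to test, with 85 UMIs in members and 5 in Crh neurons with Tac2, those 5 all in library 1 and in the 6 cells with a single Tac2 UMI. The 74 cells with 2 or more Tac2 UMIs had none. Not all genes higher in members set them apart from these 74 cells. Pooled over libraries and given without a test, these cells had Pde11a at 118, Stk32a at 123 and Isl1 at 152 CPM. The 143 members with Crh and no Wif1 had 107, 66.8 and 125 CPM. Rorb went the other way, at 2.87 against 60.8 CPM. At 1000 UMIs per cell, 26.2% ± 9.82 of Crh neurons with Tac2 and 17.2% ± 4.12 of members had a Zfhx3 UMI. In this comparison 5 hormone and transmitter receptors, 12 transcription factors of GABAergic lineages and 16 peptide processing genes could be tested. In each of these lists 0 were higher in members, and 1, 2 and 1 were lower. Over all 3360 genes tested, 18 were higher and 30 lower.

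**Figure D4:**
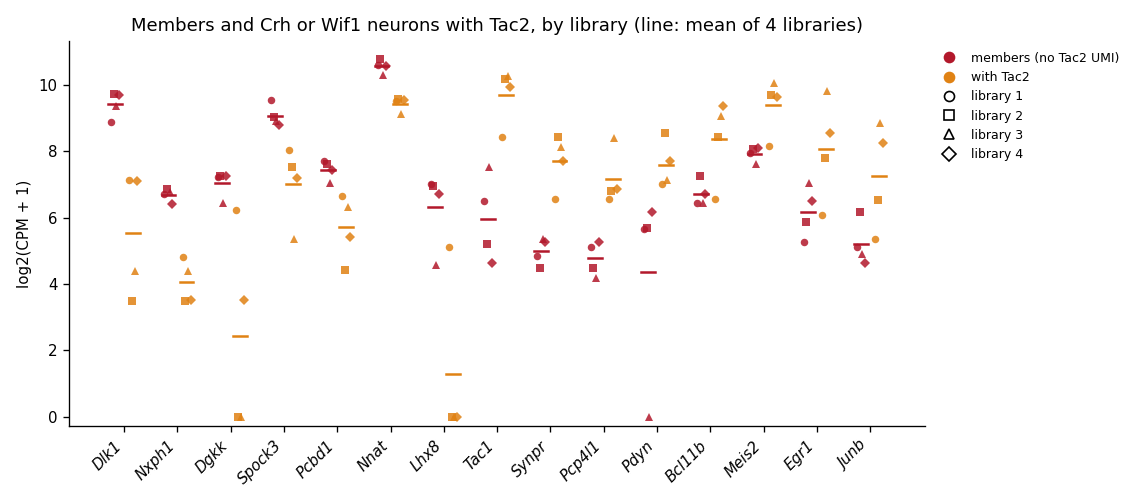
Levels of 15 genes in members and in Crh or Wif1 neurons with Tac2 as log2(CPM + 1), with 1 symbol per library and a line at the mean of 4 libraries. Dlk1, Nxph1 and Spock3 lie higher and Tac1, Synpr and Pdyn lower in members in every library, while Bcl11b, Egr1 and Junb overlap.

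All 185 GABAergic neurons with at least 2 Tac2 UMIs, whether or not they held Crh, were compared in the same way, and share 74 cells with the comparison before. Of 4223 genes tested, 120 passed (2.84%), 40 higher in members and 80 lower. The 5 largest rises were Dlk1 (470.4, 848, 665 and 835 CPM against 62.1, 103, 64.0 and 125 CPM; log2 fold change 2.93, SE 0.17, adjusted p 1.48e-23), Nrp1 (2.35), Dgkk (2.14), Slit2 (2.07) and As3mt (1.92; 2.59 without library 1, lost without library 2, 1.35). The 5 largest falls were Vip, for vasoactive intestinal peptide (8 UMIs, all in library 2, so that without it members held none, against 128; -3.99, -3.14 without library 3, and not called by DESeq2), Otof (-2.80), Synpr (-2.46), Tac1 (-2.45; -3.15 without library 1, not called by DESeq2) and Pcp4l1 (-2.30). Pnoc had 37.1, 101, 68.8 and 169.8 CPM against 265, 127, 128 and 313 CPM (log2 fold change -1.39, SE 0.23, adjusted p 1.78e-05), lower in members in all 4 libraries, but it was lost without library 1 (-0.75) and with DESeq2. Pdyn was lower, with a log2 fold change of -1.35, and was lost without library 2 (-1.04) or 3 (-1.05), and with DESeq2.

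Against the 146 neurons with at least 2 UMIs of Cck and Greb1 and no Tac2, a class with a high Pnoc level, 332 of 4212 genes passed (7.88%), 139 higher in members and 193 lower. Members had less Pnoc than these cells in every library, 37.1, 101, 68.8 and 169.8 CPM against 284, 384, 413 and 399 CPM, with no overlap. For Pnoc the log2 fold change came to -2.11, with an SE of 0.21 and an adjusted p of 1.83e-09. Penk was higher in members (730.4, 223, 499 and 415 CPM against 127, 73.2, 142 and 196 CPM; log2 fold change 1.90, SE 0.19, adjusted p 9e-10). So was Nts (1.44; lost without library 3, 1.19, and with DESeq2), and Cartpt was lower in members (898, 151, 115 and 217 CPM against 1349, 3055, 1641 and 2004 CPM; -2.56, -3.74 without library 1). The largest rises were Stk32a (56 UMIs against 1; ratio of pooled levels 57.5, 95% counting interval 9.90 to 2309.8, that single UMI coming from library 4), Pde11a (90 against 3; ratio of pooled levels 30.8, 95% counting interval 10.2 to 152), Rasgrp2 (2.99; 4.55 without library 4, not called by DESeq2), Zfhx3 (2.91; 3.66 without library 1) and Zfhx4 (2.57). The largest falls were Tac1 (-2.95), Nr2f2 (-2.85), Id2 (-2.72), Tiparp (-2.62; -3.51 without library 3) and Tmem215 (-2.61). Oprl1 was lower, with a log2 fold change of -1.08, and was lost without library 3 (-0.99) or 4 (-0.74), and with DESeq2.

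The last comparison was with the 48 neurons with at least 2 UMIs of Prkcd, the protein kinase C delta gene, which marks another population of the oval nucleus. Of 2798 genes tested 556 passed (19.9%), 249 higher in members and 307 lower. Libraries held 6 to 16 of these cells, so their sums were small. Prkcd itself had 11 UMIs in members, 10 of them in library 1, and was not past the threshold against all other GABAergic neurons (log2 fold change -1.15, adjusted p 0.193; -4.29 and past it without library 1). The largest falls were Sertm1 (3 UMIs against 31; ratio of pooled levels 35.2, 95% counting interval 11 to 179.8), the membrane linker Ezr (15.5, 14.4, 5.74 and 9.43 CPM against 233, 173, 493 and 305 CPM; log2 fold change -4.59, SE 0.43, adjusted p 2.45e-09), Ddn (-4.51; -7.19 without library 4), Spata13 (-4.34) and the kinase Ptk2b (-3.73). The largest rises were Gpx3 (126 UMIs against 2; ratio of pooled levels 18.5, 95% counting interval 5.02 to 155, both of those UMIs coming from library 4; 3.46 without library 2), Aldoc (4.01; 3.40, 3.30 and 5.66 without library 1, 2 or 4), the RNA-binding protein Elavl2 (257, 338, 396 and 245 CPM against 0, 32.4, 0 and 32.1 CPM; log2 fold change 3.81, SE 0.44, adjusted p 1.59e-07), Car10 (2.76; 3.61 without library 1) and Cib2 (2.67; 3.58 without library 2). Cartpt was lower in members in all 4 libraries (898, 151, 115 and 217 CPM against 4951, 875, 957 and 1155 CPM; log2 fold change -2.63, SE 0.17, adjusted p 1.23e-12).

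Members were not uniform. As a split made after their values were seen, and so given without a test, 48 of the 145 had a UMI of Lhx8 or Rorb (18, 9, 6 and 15 in libraries 1 to 4, or 38.3, 36.0, 24.0 and 31.2% of members) and 97 had neither. The first set was deeper, with a median of 6551 UMIs per cell against 4396, and a cell without a UMI of either gene may still express them. Crh was at 987, 1429.8, 1605 and 1471 CPM in the first set and 1815, 1762, 1871 and 1690.0 CPM in the second, and Gad2 at 1689, 2399, 2594 and 2407 and 1762, 2808, 2166 and 2266 CPM. Crh lay lower in the first set in every library, and Gad2 had no common direction. Because the rule asked for 2 UMIs of Wif1 and Crh together, shallower cells could enter only at a higher Crh CPM. The Crh difference between a deeper and a shallower set is thus not independent of the rule. Several of the genes that were higher in members lay mostly in the first set. The genes given for this split come from a short list. The share of all genes that do not overlap between the sets is not given, so lack of overlap is a description only. Dlk1 had 987, 1463, 1583 and 1511 CPM with Lhx8 or Rorb and 0, 370.2, 342 and 466 CPM without. Isl1 had 214, 279, 264 and 227 against 23.7, 63.8, 46.6 and 87.4 CPM, and Pde11a had 129.9, 115, 308 and 455 against 17.7, 25.5, 23.3 and 51.0 CPM. None of these 3 overlapped between the sets, and the same held for Nefm (734, 657, 967 and 789 against 302, 204, 342 and 459 CPM), Nnat (2533, 2991, 2989 and 2380.3 against 698, 855, 652 and 1056 CPM), Nxph1 (149, 214, 154 and 174 against 65.0, 38.3, 93.2 and 36.4 CPM) and Zfhx4 (221, 247, 198 and 254 against 101, 76.6, 124 and 58.3 CPM).

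Other transcripts lay mostly in the second set. Nts had 526, 1174, 396 and 590.1 CPM without Lhx8 or Rorb and 52.0, 32.9, 154 and 26.7 CPM with them, and 30 of the 35 members with an Nts UMI were in the second set. Meis2 had 443, 319, 241 and 408 against 32.5, 197, 65.9 and 26.7 CPM, and Nr2f2 88.7, 102, 139.7 and 72.8 against 0, 0, 22.0 and 0 CPM, the latter from 51 UMIs and 1. The sets did not overlap in any of the 3 genes, again with no share over all genes to set beside this. All 17 Npy UMIs and all 108 Cck UMIs of members were in the second set, and 107 of the Cck UMIs were in 4 of its 17 cells with an Lhx6 UMI. Across members, Nts and Penk were captured together in 18 cells (of 35 and 44 with each), beside 10.6 from the product of the single shares. Nts and Pdyn were together in 12 (of 35 and 19), beside 4.59, and Nts and Lhx8 in 4 (of 35 and 40), beside 9.66. These pairs were picked from a longer list and not tested, and shared depth raises all such counts.

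**Figure D5:**
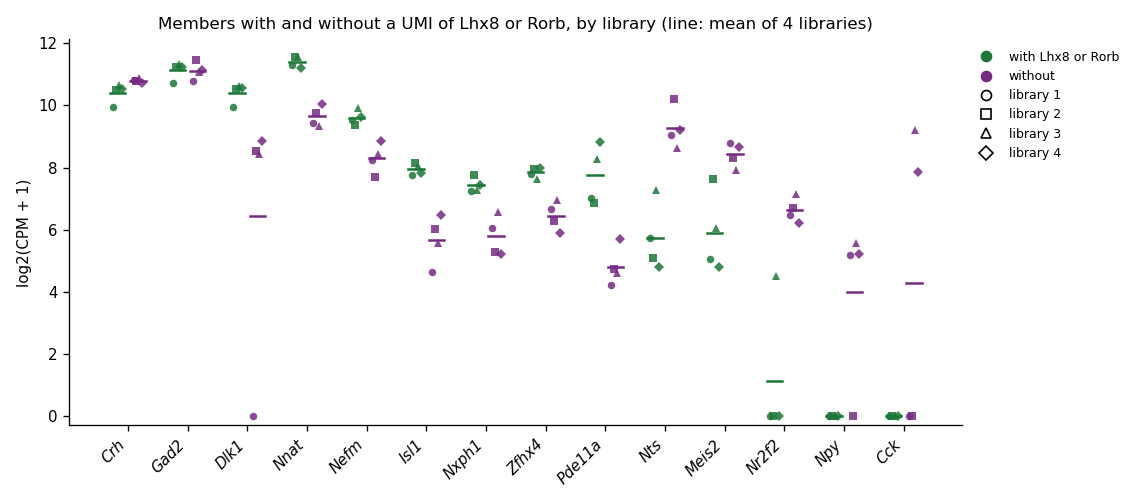
Levels of 14 genes in the 48 members with a UMI of Lhx8 or Rorb and the 97 without, as log2(CPM + 1), with 1 symbol per library and a line at the mean of 4 libraries. Dlk1, Nnat, Nefm, Isl1, Nxph1, Zfhx4 and Pde11a lie higher with Lhx8 or Rorb in every library, and Nts, Meis2 and Nr2f2 lower.

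Some values carry a limit of counting. The strand used in counting was not given in the sources used here, and Rnf207, Nfib, Nfix, Penk, Nr2f2, Six3, Zic1, Zic4, Zfhx4, Necab1, Hpca, Ppp1r1b, Kcnab1, Kcnip4, Gabra4, Grin2b, Scn1a, Slit2, Pcdhga9, Gnal, Gnas, Junb, Cnp, Slc1a2, Nefm, Nnat, Rasgrp2, Tiparp, Cib2, Ezr, Ddn and Spock3 each overlap another gene on the opposite strand in GENCODE vM21, so that reads of the pair cannot be told apart. The symbols Fam101b, Drd1a and Ppap2b were not found in that annotation. With 4 libraries the exact two-sided sign-flip permutation test of a single gene cannot pass 0.05: its smallest p, from 2 of 16 sign patterns, was reached by each gene named here with the same sign in every library.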

How the data were processed

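Single cells of BNST punches from 4 pools of 6 male mice were captured by Drop-seq. The authors deposited raw UMI counts per gene and barcode, 1 table per library; per the submitters' processing notes these came from bcl2fastq 2.18.0.12, STAR 2.4.2a and Picard 2.2.4 on mm10 (GRCm38), while the annotation, the counting strand and the choice of barcodes were not given in the sources used here. The counts were used as deposited, filtered by the rule given in the report and summed per library and class. Sums were tested with edgeR 4.0.16 (R 4.3.3; TMM factors, filterByExpr, quasi-likelihood, the library being the block because members and compared cells were captured together) and with DESeq2 1.42.0 as an alternative; at least 5 cells per library and class were required. The 11 genes of the rule, and Cck, Greb1 or Prkcd where they chose the compared cells, were not tested. SEs were obtained by dividing each log2 fold change by the root of its F statistic. Intervals of shares and ratios are exact 95% binomial intervals, and they and the floor of 3 counts cover counting error only. Doublets were called with Scrublet in scanpy 1.11.5 at an assumed rate of 0.05, and no doublet was removed in the main fits. Against all other GABAergic neurons, matching on depth took up to 3 other cells for each member. Against Crh neurons with Tac2 it took 1 member of the same library for each of those cells and left out the remaining members. The members and the gene lists were chosen with earlier results of these data known. Named genes are the called members of 22 gene lists, the 12 largest rises and 8 largest falls that went the same way in every library (5 and 5 in the other comparisons), 14 genes fixed whatever their result, and genes marked as picked after their values were seen. A pair of called genes is not reported here. Positions are from GENCODE vM21, in which 93.5% of 20136 gene names were found. Scripts were tested on simulated data. Of the barcodes, 595 end in an undetermined base, 6 of them members, and 11 barcodes occur in more than 1 library, none of them among kept cells.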

Additional observations from a re-analysis of the deposited data

Results flagged for a closer look

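In 16 of 111 sets of 4 library values, 1 library of members lay apart from the other 3. The gap to the nearest value was above Dixon's 95% critical share of the whole range. For normally distributed values about 5.55 such sets are expected by chance. Low counts are not so distributed, and a gene with UMIs in 1 library only is always flagged, so the 16 cannot be read against the 5.55. In 5 genes the apart library was the only one with a UMI: library 1 for Avp (3.09 CPM), Drd1a (9.28 CPM), Zic4 (6.19 CPM) and Prox1 (15.5 CPM), and library 4 for Nfix (14.1 CPM). Library 1 was high for Cartpt, at 898 CPM with the others at 115 to 217 CPM, and for Prkcd, at 30.9 CPM with the others at 0 to 4.72 CPM, and it was low for Sema3a, at 46.4 CPM with the others at 80.3 to 86.2 CPM. Library 2 was high for Sst (309 CPM against 18.9 to 63.1 CPM), St8sia2 (57.5 CPM against 17.2 to 23.6 CPM) and Cnp (14.4 CPM against 4.72 to 6.19 CPM), and low for Id2 (14.4 CPM against 37.7 to 40.2 CPM). Library 3 was high for the receptor genes Npy2r (264 CPM against 105 to 118 CPM), Cnr1 (316 CPM against 79.0 to 108 CPM) and Grin2b (298 CPM against 151 to 167 CPM), and low for Rorb (28.7 CPM against 65.0 to 71.8 CPM).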

How the results depend on the processing

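Counts of called genes moved more than their directions. Against all other GABAergic neurons, the 473 calls became 184 with DESeq2, 98 with no replicate block, 201 at no more than 5% mitochondrial UMIs and 238 with the others matched on depth, and 243 to 378 with each library left out; all 184 and all 98 were among the 473. The pairing by library is that of the libraries themselves, and with no replicate block the calls also fell from 120 to 33 against Tac2 neurons, from 332 to 148 against Cck and Greb1 neurons and from 48 to 22 against Crh neurons with Tac2, with 387 of 556 against Prkcd neurons. DESeq2 called 17, 90, 234 and 17 genes in the comparisons with Tac2, Cck and Greb1, Prkcd and Crh with Tac2 neurons, and leaving out each library gave 59 to 97, 194 to 291, 428 to 479 and 16 to 58. Matching members on depth left 16 calls against Crh neurons with Tac2.

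Members made up 6.25% of GABAergic neurons by the rule, 7.08% at 800 genes per cell, 5.22% at 3 or more UMIs of Wif1 and Crh, 8.80% at 1 or more, 9.84% where Tac2 was allowed, 9.66% in cells of 3000 or more UMIs and 0.0362% by Wif1 alone, and 6.02 to 6.57% with a library left out. At 2000 UMIs per cell the shares with a UMI were 11.1% of members and 17.1% of the other GABAergic neurons for Pnoc (7.17% and 9.76% at 1000), and 14.3% of members for Lhx8 (7.82%), with 3.25% ± 0.663 of the others.

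For genes named against all other GABAergic neurons, 1991 values over the alternatives kept direction and side of the threshold, 332 lost the call, 22 gained one and 15 changed sign. Signs turned for Tac1 (0.30), Pdyn (1.40), Npas4 (0.27) and Fos (0.21) where Tac2 was allowed, for Nts (-0.062) with neuron genes at 1% of UMIs, for Cartpt (0.15), Pdyn (0.024) and Lhx6 (0.034) at 1 UMI of Wif1 and Crh, for Lhx6 (0.0046) at 3, and for Pdyn (0.32) and Lhx6 (0.15) without library 3. With each library left out Pdyn ran from -0.30 to 0.32 and Lhx6 from -0.19 to 0.15. Pdyn also turned with the others free of Tac2 (0.26), matched on depth (0.50), free of Tac2, Crh and Wif1 (0.28), or both of these (0.63). The cause was not tested. The fit of Wif1 alone, and that of Crh-only against Wif1-only members, had 1 cell and could not be run. Summed members held 139188 to 323110 UMIs per library, so that genes under about 20 UMIs in members have wide counting error.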
